A study of Mus musculus with 12 samples.

Results

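The pentose phosphate pathway was followed through the transcripts of its 8 enzymes, which were chosen by name. G6pdx, H6pd, Pgls and Pgd form the oxidative arm, and Rpia, Rpe, Tkt and Taldo1 form the non-oxidative arm. All 8 were found among the 23420 genes of the count table, and all 8 passed the filter on low counts that left 9742 genes for testing. RNA was sequenced from cells labelled as M-MDSCs, monocytic myeloid-derived suppressor cells, which are immature myeloid cells that can become osteoclasts. The cells were sorted as CD11b+Ly6G-Ly6Chi from tibial bone marrow of male C57BL/6JNIA mice. Each library came from 1 animal, and 6 animals were aged 24 months and 6 were young at 6 months. The labels name no allele, drug or diet in either group, so age is the labelled difference between them.

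The pathway branches from glycolysis at glucose 6-phosphate. Its oxidative arm oxidises this sugar to ribulose 5-phosphate and forms NADPH, and its non-oxidative arm interconverts sugar phosphates, which supplies ribose 5-phosphate for nucleotides or returns carbon to glycolysis. In phagocytes NADPH feeds the oxidase that makes superoxide, and it also keeps glutathione and thioredoxin reduced.

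Transcripts of 3 of the 4 oxidative enzymes were higher in aged mice, namely G6pdx (1.45-fold), Pgls (1.32-fold) and Pgd (1.28-fold). In the non-oxidative arm Taldo1 was higher (1.33-fold) and Rpe was lower (0.88-fold). H6pd, Rpia and Tkt did not pass the threshold, which was an adjusted p of 0.05 in edgeR's quasi-likelihood test adjusted by Benjamini-Hochberg over the whole set of genes tested. These 4 higher and 1 lower of 8 stand beside 22.4% of all tested genes called higher and 23.0% called lower, or 45.4% in either direction. The log2 fold change was above 0 for 5 of 8 members and for 50.5% of tested genes. DESeq2 called 5 of 8 higher and 1 lower, beside 19.7% and 18.2% of the genes it tested. Only G6pdx and Pgd separated the ages without overlap, both higher in aged mice, as 9.68% of tested genes did in that direction. The median log2 fold change was 0.38 over the oxidative arm and 0.00 over the non-oxidative arm, against 0.01 over all tested genes. With a correction for gene length, described with H6pd, these arm medians were 0.19 and -0.03.

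Features of the libraries bear on these values. Counted fragments per library numbered 4613239 to 9079237 for the young group and 8737941 to 16300374 for the aged group. Across genes, the log2 fold change fell with exonic length (Spearman's rho -0.48 over genes, which are not independent replicates). The median log2 level of genes of up to 1000 bases minus that of genes of at least 5000 bases was 0.15 to 0.52 in aged and -0.82 to -0.10 in young mice, and young mice 5 and 6 lay lowest at -0.82 and -0.75. The same pair had the highest summed level of 7 proliferation markers, at 1291 and 1257 CPM against 687 to 834 CPM in the other young mice. Here CPM is a count scaled to a common library total. Mki67 and Top2a lead this sum in young mice (means of 399 and 319 CPM) and are long, with 10075 and 5217 exonic bases. Markers were also read against the sort. The summed level of 8 neutrophil markers, led by the granule genes Ngp and Ltf, was 66692 to 84062 CPM in aged and 54190 to 73865 CPM in young mice, and 5 of the 8 were called higher in aged mice (1 of 8, Mpo, after a correction for gene length), beside the 22.4% of all tested genes. The 8 monocyte markers summed to 3438 to 4495 and 4016 to 4207 CPM, so that neutrophil transcripts exceeded them in every library, which goes against a gate meant to leave neutrophils out. Of 8 resident macrophage markers, 6 were tested, and these 6 all passed the threshold as higher with age, beside 22.4% of all tested genes, with sums of 36.5 to 694 against 29.1 to 46 CPM. The 5 stromal and endothelial markers summed to 17.9 to 98.1 CPM in aged and 9.48 to 20.6 CPM in young mice, with Cxcl12 (log2 fold change 2.35) and Pecam1 (1.07) called higher and Col1a1 (-0.26) not called among 3 tested, beside 22.4% of all tested genes called higher. Erythroid markers summed to 0.535 to 5.24 against 0 to 0.355 CPM. Both alpha globin genes had a count of 0 in every mouse. Their deposited spans nearly coincide, so fragments that fit both may not have been counted, and this 0 need not mean absent RNA. Of 5 dendritic cell markers only Clec9a was tested. It was low, at 0.83 in aged and 4.51 CPM in young mice on average. It was called lower (-2.45), beside 23.0% of all tested genes. The part of these markers in the results was not tested, and in bulk samples fewer cells of a type and less RNA per cell cannot be told apart. In the column names, each young mouse has a lower sample number than any aged mouse. What they stand for is not stated, and anything that changed with them cannot be told apart from age.

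The promoters of the 4 abundant enzymes are shown because their transcripts made up most of the pathway in these cells. Each window runs from 250 bases before to 50 after the transcript start in RefSeq (GRCm38.p6, the assembly of mm10) and is written 5′ to 3′ on the strand of the gene. Capitals mark a GC box (GGGCGG, or CCGCCC on the other strand) or the antioxidant response element core (TGACNNNGC, or GCNNNGTCA on the other strand). The windows are chrX:74428831-74429130 on the minus strand for G6pdx, chr4:149166656-149166955 on the minus strand for Pgd, chr14:30548881-30549180 on the plus strand for Tkt and chr7:141391910-141392209 on the plus strand for Taldo1.
G6pdx: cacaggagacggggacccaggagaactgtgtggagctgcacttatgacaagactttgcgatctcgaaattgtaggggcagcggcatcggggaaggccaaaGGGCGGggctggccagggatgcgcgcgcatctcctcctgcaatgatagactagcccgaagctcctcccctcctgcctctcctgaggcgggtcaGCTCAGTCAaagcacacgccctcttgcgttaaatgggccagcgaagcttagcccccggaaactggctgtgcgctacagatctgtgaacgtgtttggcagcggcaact
Pgd: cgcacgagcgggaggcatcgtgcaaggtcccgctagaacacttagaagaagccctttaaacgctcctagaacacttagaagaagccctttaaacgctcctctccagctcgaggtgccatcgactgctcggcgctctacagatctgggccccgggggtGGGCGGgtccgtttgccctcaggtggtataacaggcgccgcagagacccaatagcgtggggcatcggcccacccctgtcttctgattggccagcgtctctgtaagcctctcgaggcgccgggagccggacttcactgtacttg
Tkt: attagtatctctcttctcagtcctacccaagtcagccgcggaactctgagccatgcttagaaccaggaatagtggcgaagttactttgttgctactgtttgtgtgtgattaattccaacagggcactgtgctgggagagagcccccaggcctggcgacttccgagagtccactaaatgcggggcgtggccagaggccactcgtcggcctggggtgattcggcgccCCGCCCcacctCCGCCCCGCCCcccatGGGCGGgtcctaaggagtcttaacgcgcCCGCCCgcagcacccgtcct
Taldo1: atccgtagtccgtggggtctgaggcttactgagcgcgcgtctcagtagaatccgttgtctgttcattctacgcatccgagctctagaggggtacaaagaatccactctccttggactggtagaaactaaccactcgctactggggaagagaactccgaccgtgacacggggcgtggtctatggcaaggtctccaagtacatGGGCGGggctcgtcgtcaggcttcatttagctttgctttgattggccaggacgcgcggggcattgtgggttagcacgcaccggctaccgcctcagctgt

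All 8 enzymes matched the promoter table, with 9 windows because Pgd has a pair of starts. The antioxidant response element core, the motif bound by Nrf2, was found in 2 of the 9 windows against 12.4% of all 32851 windows of that length. These were the window of G6pdx, where the match begins 57 bases before the start (-57), and the inner window of Pgd at chr4:149166033-149166332. In that inner window the match begins 3 bases after the start, and the outer window of Pgd held none. A GC box was found in 7 of 9 windows against 35.7% of all, with 5 matches in Tkt, of which one pair shares letters, 2 in Rpe and 1 each in G6pdx, Pgls, the outer window of Pgd, Rpia and Taldo1. The E-box CACGTG, which reads the same on both strands, was found in none of the 9 and in 7.15% of all windows. The window of H6pd lies inside the deposited gene, several kilobases from its 5′ end, and held none of the 3 motifs. These matches describe letters in the windows only.

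G6pdx encodes glucose-6-phosphate dehydrogenase, which commits glucose 6-phosphate to the pathway and makes the first NADPH. The gene lies on chromosome X from 74409486 to 74429161 (mm10, minus strand) with 2616 bases of exon. Its level was lowest at 784, median 1002 and highest at 1056 CPM in young mice, and lowest at 1185, median 1302 and highest at 1668 CPM in aged mice. Every aged mouse was above every young mouse. Mean levels were 1379 ± 190 CPM in aged and 954 ± 111 CPM in young mice (SD, n = 6 each). Aged over young, the log2 fold change was 0.53 with a standard error of 0.101 (edgeR adjusted p = 0.000865). Counts behind these values were 4929 to 24841 per mouse, so counting error was small. Of 2547 tested genes with 0.8 to 1.25 times its exonic length, 92.5% had a lower log2 fold change than G6pdx, and their median was 0.03.

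H6pd encodes hexose-6-phosphate dehydrogenase, the enzyme of the endoplasmic reticulum that carries out the first and second oxidative steps on its own NADP pool. It lies on chromosome 4 from 149979481 to 150009023 (minus strand). Its level ran from 150 through a median of 154 to 171 CPM in young mice and from 137 through 145 to 173 CPM in aged mice, and the ages overlapped. The log2 fold change was -0.06, with a 95% interval from -0.20 to 0.07 (edgeR adjusted p = 0.432). With a correction for gene length, which removes each library's dependence on exonic length, the value changed sign to 0.11 and again did not pass (adjusted p = 0.18).

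Pgls encodes 6-phosphogluconolactonase, which opens the lactone made by G6pdx. It is a short gene of 883 exonic bases on chromosome 8 from 71592184 to 71596267 (plus strand). Its level was 27.3 at the lowest, 35.5 at the median and 41.7 CPM at the highest in young mice, and 39.4, 47.8 and 50.8 CPM in aged mice. The groups overlapped because aged mouse 4, at 39.4 CPM, lay under young mouse 9. The log2 fold change was 0.40 with a standard error of 0.105 (edgeR adjusted p = 0.00652). Genes of like length had a median log2 fold change of 0.40 as well, and 49.8% of those 566 genes lay below Pgls. After the length correction its log2 fold change was 0.00 and the call was lost (adjusted p = 0.969). Without young mice 5 and 6 it was 0.26 (adjusted p = 0.0498).

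Pgd encodes 6-phosphogluconate dehydrogenase, which forms the second NADPH and ribulose 5-phosphate. It lies on chromosome 4 from 149149985 to 149166707 (minus strand). In young mice its level was lowest at 1139, median 1577 and highest at 1607 CPM, and in aged mice it was 1711, 1830 and 2057 CPM. The ages did not overlap, and young mice 5 and 6 stood below the other 4 young mice, which lay close together. Its log2 fold change was 0.36 with a standard error of 0.0992 (edgeR adjusted p = 0.00922). It was 0.28 after the length correction (adjusted p = 0.0324). Without young mice 5 and 6, left out after the data were seen, it was 0.20 (adjusted p = 0.0272), over 1.5 times smaller.

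**Figure D1:**
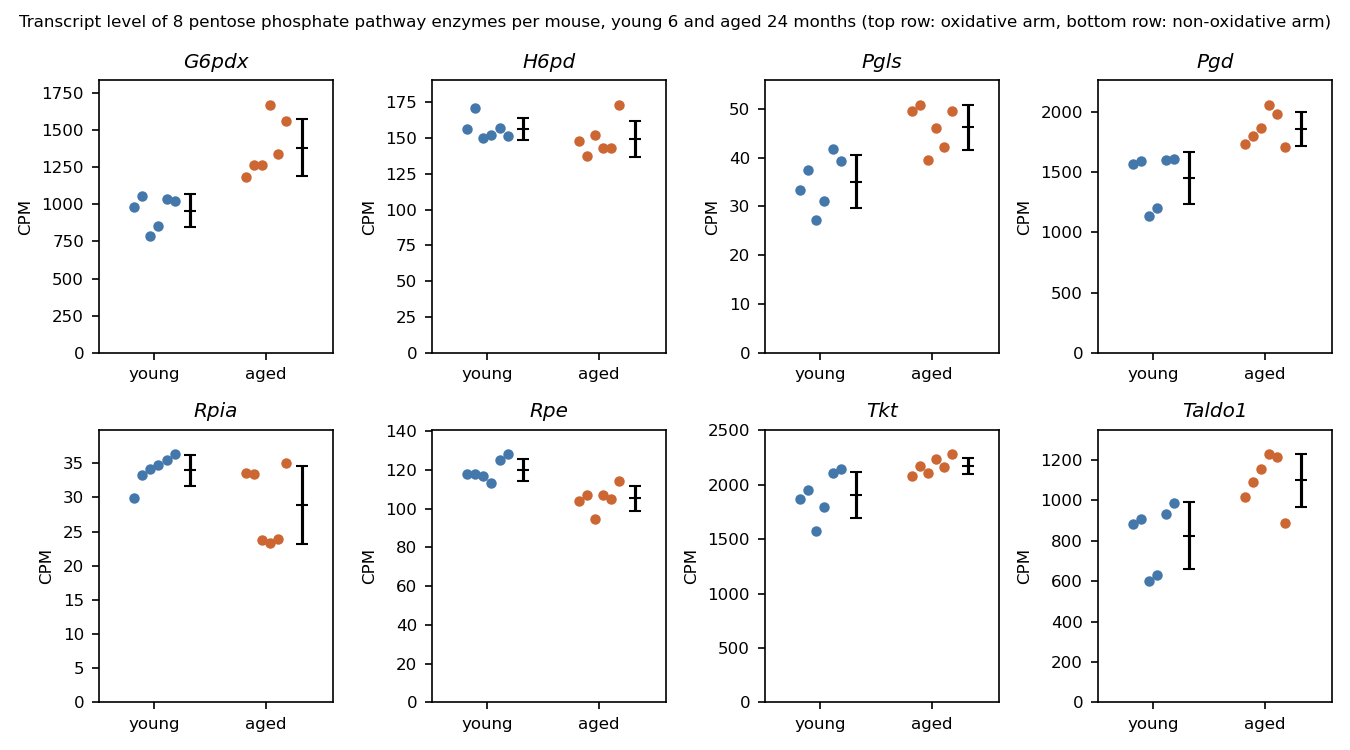
Level of each enzyme in CPM (vertical axes from 0) in 6 young and 6 aged mice, with the oxidative arm in the top row and the non-oxidative arm in the bottom row. Points are mice and bars are the mean ± SD. G6pdx and Pgd separate the ages, with the highest young mice at 1056 and 1607 CPM and the lowest aged mice at 1185 and 1711 CPM, while Rpia falls into a lower and a higher trio among the aged mice.

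Rpia and Rpe encode the isomerase and the epimerase that share ribulose 5-phosphate, the former making ribose 5-phosphate and the latter xylulose 5-phosphate. Rpia lies on chromosome 6 from 70765720 to 70792175 (minus strand) and was the lowest of the 8 enzymes. Its level was 29.9, 34.5 and 36.3 CPM (lowest, median, highest) in young mice. Among aged mice it was 33.6, 33.4 and 35.0 CPM in mice 1, 2 and 7 and 23.8, 23.3 and 23.9 CPM in mice 4, 5 and 6. The former 3 lay within the young range and the latter 3 below it. The summed proliferation markers, led by the long genes Top2a and Mki67, were also lowest in aged mice 4, 5 and 6. The sums were 359 to 409 CPM against 536 to 802 CPM in the other 3. The part of these markers in this split was not tested. The log2 fold change of Rpia was -0.24, with a 95% interval from -0.49 to 0.01 (edgeR adjusted p = 0.106). It was called lower after the length correction (-0.39, adjusted p = 0.0177) and without aged mouse 7 (-0.30, adjusted p = 0.0395).

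Rpe was the single enzyme called lower. It lies on chromosome 1 from 66700893 to 66719805 (plus strand). Its level was 113, 118 and 128 CPM (lowest, median, highest) in young mice and 94.6, 106 and 114 CPM in aged mice. The ages touched only through aged mouse 7, at 114 CPM, and young mouse 6, at 113 CPM. This gave a log2 fold change of -0.19 with a standard error of 0.0584 (edgeR adjusted p = 0.0179), a fall of small size. The call was lost after a correction for GC content (-0.12, adjusted p = 0.0748) and held after the length correction (-0.21, adjusted p = 0.0117).

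Tkt encodes transketolase, which moves a carbon pair between sugar phosphates, and it had the highest CPM of the 8. It lies on chromosome 14 from 30549149 to 30574722 (plus strand). Its level was 1576, 1914 and 2144 CPM (lowest, median, highest) in young mice and 2077, 2171 and 2281 CPM in aged mice. Aged mice varied little (2174 ± 75.7 CPM, SD, n = 6), and young mice 9 and 10 lay within their range. Tkt had a log2 fold change of 0.19, with a 95% interval from 0.02 to 0.36, and did not pass after adjustment over all genes (edgeR adjusted p = 0.0635). It lay near the threshold, since DESeq2, the tool the study used, called it higher (0.19, adjusted p = 0.036), while without young mice 5 and 6 it was 0.09 (adjusted p = 0.304).

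Taldo1 encodes transaldolase, which transfers a longer carbon piece and links the arm back to glycolysis. It lies on chromosome 7 from 141392160 to 141402976 (plus strand) with 1276 bases of exon. Its level was 601, 895 and 989 CPM (lowest, median, highest) in young mice and 887, 1124 and 1228 CPM in aged mice. The overlap came from aged mouse 7, at 887 CPM, whereas the other aged mice were all above the highest young mouse. The log2 fold change was 0.42 with a standard error of 0.127 (edgeR adjusted p = 0.0152). It was 0.15 after the length correction (adjusted p = 0.245) and 0.22 without young mice 5 and 6 (adjusted p = 0.0566), so the call was lost in both.

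**Figure D2:**
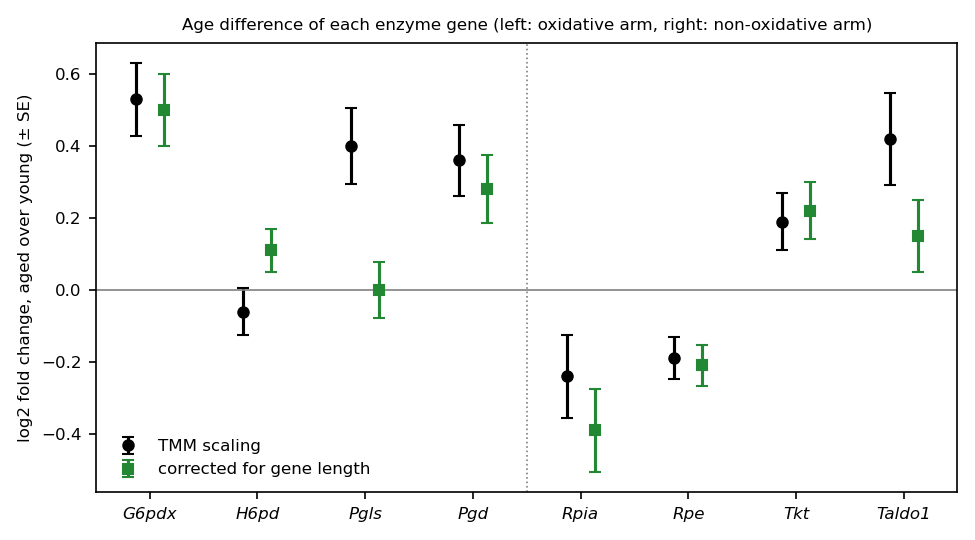
Log2 fold change of each enzyme, aged over young mice, ± SE, before (circles) and after (squares) the correction for gene length. G6pdx is 0.53 and 0.50, whereas Pgls moves from 0.40 to 0.00 and Taldo1 from 0.42 to 0.15 with the length correction.

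Calls of single members moved with these settings, while G6pdx was called in each. After the length correction 3 of 8 enzymes were called higher (G6pdx, Pgd and Tkt) and 2 lower (Rpia and Rpe), beside 18.3% and 16.5% of all tested genes. Without young mice 5 and 6 the numbers were 3 higher (G6pdx, Pgls and Pgd) and 1 lower (Rpe), beside 14.1% and 17.9%.

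**Figure D3:**
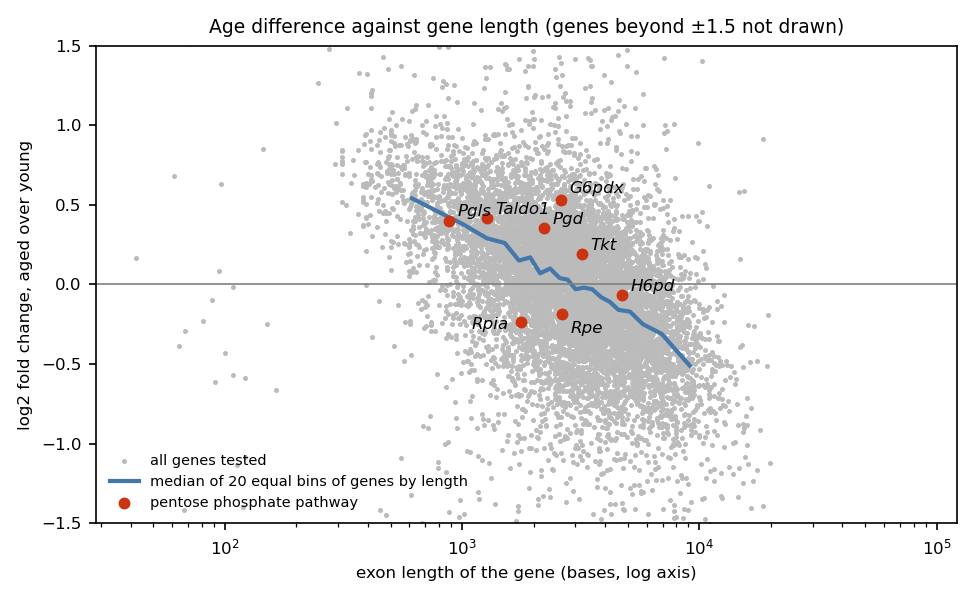
Log2 fold change of tested genes (vertical axis) against exonic length in bases (horizontal axis, log scale), with genes beyond ±1.5 not drawn, the 8 enzymes named and a line through the medians of 20 bins of equal size. The medians run from 0.54 in the shortest to -0.51 in the longest genes, and Pgls lies on the trend while G6pdx lies above it and Rpia and Rpe below it.

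Levels per length were compared as CPM per kilobase of exon. In aged mice they were 862 for Taldo1, 834 for Pgd, 678 for Tkt and 527 for G6pdx, and in young mice 646, 652, 595 and 365. The remaining 4 enzymes were far lower, with Pgls at 52.3 and 39.7, Rpe at 40.1 and 45.6, H6pd at 31.5 and 33.0, and Rpia at 16.3 and 19.2 in aged and young mice. The gap between these groups lay between G6pdx and Pgls, where the level differed 9.69-fold on average. Taldo1 and Pgd did not differ beyond their spread, as Taldo1 was the higher in 7 of 12 mice, 5 of 6 aged and 2 of 6 young. Pgd was above Tkt in 11 of 12 mice. Pgls and Rpe changed places with age, with Pgls above in 6 of 6 aged mice and Rpe above in 6 of 6 young mice. Pgls is the shorter gene, and its own log2 fold change of 0.40 was 0.00 with the length correction, against -0.19 and -0.21 for Rpe.

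The sum over the 8 enzymes was 3041 ± 191 in aged and 2395 ± 337 CPM per kilobase in young mice, without overlap. G6pdx took 17.3 ± 1.87% of this sum in aged and 15.3 ± 0.566% in young mice. Pgd kept nearly the same share, 27.4 ± 0.639% and 27.2 ± 0.685%. Rpia and Rpe each took a smaller share in every aged than in every young mouse, with means of 0.541% against 0.815% and 1.32% against 1.93%. These shares are descriptions and depend on gene length as the levels do.

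The oxidative arm was then set against the non-oxidative arm within each mouse, which removes the scaling of libraries. The ratio of the summed levels per length, oxidative over non-oxidative, was 0.786 at the lowest, 0.844 at the median and 0.866 at the highest in young mice and 0.864, 0.877 and 0.992 in aged mice. The ranges touched at their edges, and aged mice 5 and 7, at 0.960 and 0.992, were the highest. On the log2 scale the ratio was -0.14 ± 0.0861 in aged and -0.26 ± 0.0516 in young mice, a difference of 0.11. This difference was 0.18 with the length correction and 0.07 over the 4 mouse numbers that both ages have. No test was made of this score over chosen members.

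Of 4 ratios between pairs of enzymes, 1 differed between the ages in exact two-sided permutation tests with Benjamini-Hochberg adjustment over the 4. G6pdx exceeded its reticulum counterpart H6pd by 9.46 to 12.3-fold in young mice (median 11.3) and by 14.5 to 21.2-fold in aged mice (median 16.5). The log2 ratio rose by 0.60 in aged mice, with no overlap in 6 against 6 mice (exact p = 0.00216, the smallest this design allows, adjusted p = 0.00866). After the length correction the difference was 0.40, over 1.5 times smaller, at the same exact adjusted p. This ratio rests on the same counts as the log2 fold changes of G6pdx (0.53) and H6pd (-0.06), so it is not separate support. Rpia to Rpe did not pass, at -1.32 ± 0.252 in aged and -1.25 ± 0.092 in young mice on the log2 scale (exact p = 0.513).

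Tkt to Taldo1, the pair that moves carbon units, had log2 ratios of -0.34 ± 0.198 in aged and -0.10 ± 0.176 in young mice (SD, n = 6 each, exact p = 0.0563, adjusted p = 0.113). Aged mouse 7 stood apart at 0.03, and without it the difference was -0.31 (exact test, adjusted p = 0.00866). Without young mice 5 and 6 the difference was -0.13 (exact test, adjusted p = 0.375). After the length correction the difference turned to 0.07 (adjusted p = 0.424). G6pdx was set against Gpi1, glucose-6-phosphate isomerase, which takes the same substrate into glycolysis. Gpi1 itself was higher in aged mice, at 1587 to 1970 against 1164 to 1489 CPM (log2 fold change 0.37, edgeR adjusted p = 0.00169). Their log2 ratio was -0.20 ± 0.214 in aged and -0.37 ± 0.0769 in young mice, and the difference of 0.16 did not pass (exact p = 0.126, adjusted p = 0.167). It passed only without aged mouse 4 (0.22, adjusted p = 0.0216) among the mice left out in turn.

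**Figure D4:**
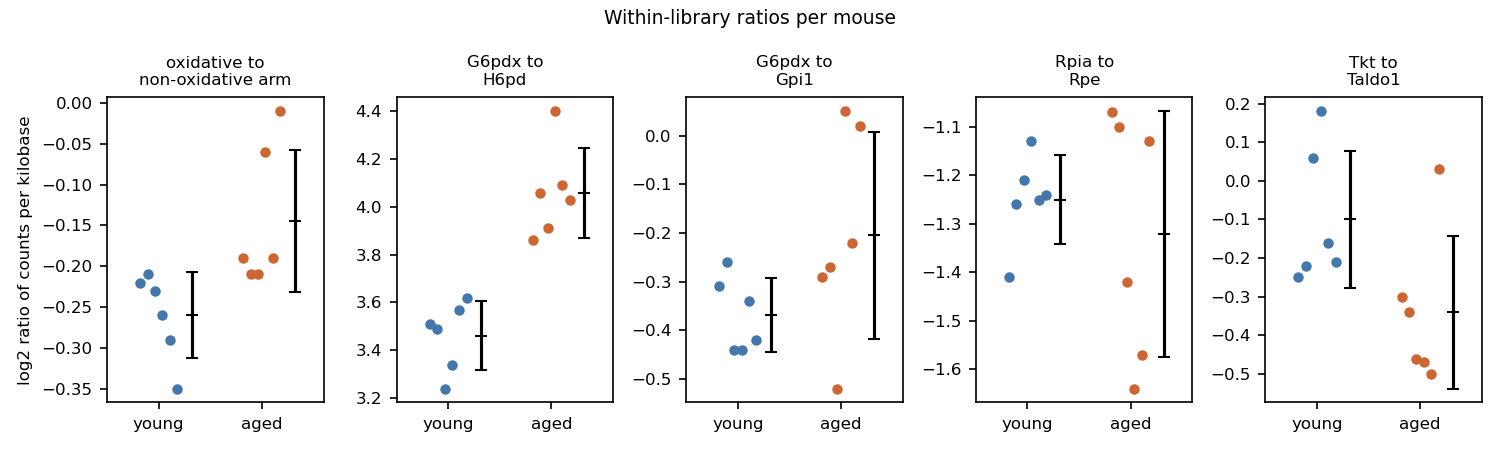
Log2 ratio of levels per length in each mouse for the oxidative over the non-oxidative arm and for 4 pairs of enzymes, with young and aged mice side by side. Points are mice and bars are the mean ± SD. Only the ratio of G6pdx to H6pd separates the ages, from 3.24 to 3.62 in young and from 3.86 to 4.40 in aged mice.

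Members were also compared in how they varied among mice of the same age, by Pearson's r of log2 CPM centred within each age over 12 mice, as a description. The points share library, depth and gene length. Pgd and Taldo1, from different arms, varied most alike (r = 0.97), and Tkt followed Pgls (0.83), Pgd (0.78) and G6pdx (0.77). Rpia ran against Taldo1 (-0.41) and Pgd (-0.39), and H6pd stayed between -0.14 and 0.41 with every other member.

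Among 6591 genes of at least 10 CPM, the genes most like each member by that r were named by rule. G6pdx was closest to Phf23 (0.960) and Upp1 (0.954), and Upp1, uridine phosphorylase, was itself higher in aged mice, at 24.0 to 62.4 against 5.32 to 14.1 CPM (log2 fold change 2.0, edgeR adjusted p = 4.7e-05). Pgd was closest to Gabarap (0.992) and Msra (0.985), and Taldo1 to 1110008F13Rik (0.993) and H3f3a (0.988). Tkt was closest to Aldh2 (0.974) and Wdr1 (0.967), and Pgls to the granule gene Ngp (0.940) and Hist1h3e (0.928). Rpia was closest to Polh (0.978), a DNA polymerase, and Rrm1 (0.959), a subunit of ribonucleotide reductase. Rpe was closest to Cpne3 (0.897) and Lyz2 (0.891), and H6pd to Slc35c1 (0.931) and Ankib1 (0.893).

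Close relatives of the members were low. Tktl1 and Tktl2, relatives of transketolase, did not pass the filter and averaged at most 0.0308 CPM in either age. G6pd2, a single-exon copy of G6pdx, had 10 to 72 counts per mouse (log2 fold change 0.56, edgeR adjusted p = 0.0834). Fragments that fit both copies may have been lost to the mapping quality filter, so counts of the pair carry that uncertainty. Among 5 tested relatives and side enzymes, Dera, deoxyribose-phosphate aldolase, was called higher (0.41, adjusted p = 0.0171), a call lost with the length correction (0.24, adjusted p = 0.123). That 1 of 5 stands beside 22.4% of all tested genes. Rbks, ribokinase, had a log2 fold change of -0.42 (adjusted p = 0.0548) and was called lower with that correction (-0.76, adjusted p = 0.00318), which made 0 higher and 1 lower of 5, beside 18.3% and 16.5% of all tested genes. Pgm2 had a log2 fold change of 0.11 and Shpk, sedoheptulokinase, one of -0.04, and neither was called.

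Downstream of ribose 5-phosphate, none of the 5 genes of phosphoribosyl pyrophosphate synthesis was called by edgeR, beside 45.4% of all tested genes, and neither an unadjusted p under 0.05 nor DESeq2 gave any (0 of 5 in both). Log2 fold changes ran from -0.21 for Prpsap2 to 0.30 for Prps1, with Prps1l3 at 0.29, Prps2 at 0.24 and Prpsap1 at 0.06. Prpsap2 was called lower after the length correction (-0.34, adjusted p = 0.0423). Of 16 tested genes of glucose entry and glycolysis, 10 were called higher and 2 lower, beside 22.4% and 23.0% of all tested genes, with a median log2 fold change of 0.31 against 0.01 over all genes. Ldha, lactate dehydrogenase, rose most (0.58, adjusted p = 0.000828), and Pkm, pyruvate kinase, had the highest level per length (899 in aged and 702 CPM per kilobase in young mice, 0.36, adjusted p = 0.00649). The hexokinases Hk3 (-0.23, adjusted p = 0.0157) and Hk2 (-0.17, adjusted p = 0.046) were called lower, and Slc2a3, Hk1, Pfkl and Pfkp were not called. With the length correction 8 were called higher and 1 lower, beside 18.3% and 16.5%. Hk2 then changed sign and lost its call (0.07, adjusted p = 0.464), while Slc2a3 (0.33, adjusted p = 0.019) and Pfkl (0.29, adjusted p = 0.0223) were called higher. Calls as higher were lost for Aldoa (0.18, adjusted p = 0.167), Tpi1 (0.11, adjusted p = 0.168), Pgam1 (0.16, adjusted p = 0.164) and Eno1 (0.32, adjusted p = 0.0764).

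Of other enzymes that make NADPH or its precursor, 6 were tested, and 2 were called higher and 2 lower, beside 22.4% and 23.0% of all tested genes. Nadk, NAD kinase, was called higher (0.24, adjusted p = 0.0119), as was Idh1 (0.18, adjusted p = 0.042). Nnt, the mitochondrial transhydrogenase, was called lower (-0.56, adjusted p = 0.000214), as was Mthfd2 (-0.36, adjusted p = 0.0267), and Me2 (0.11) and Idh2 (0.39) were not called. With the length correction Idh1 lost its call (0.14, adjusted p = 0.128), which left 1 higher and 2 lower, beside 18.3% and 16.5% of all tested genes. Per length, Nadk stood at 326 in aged and 277 CPM per kilobase in young mice, below G6pdx and Pgd.

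In the glutathione and thioredoxin systems, which NADPH keeps reduced, 11 of 17 genes were called higher and 0 lower, beside 22.4% and 23.0% of all tested genes, and the median log2 fold change was 0.47. Prdx1, a peroxiredoxin, rose most (1.1, adjusted p = 0.000663), Prdx5 had the highest level per length (0.57, adjusted p = 0.00358), and the largest negative value was that of Txnrd1 (-0.15, adjusted p = 0.131). Many of these genes are short, and with the length correction 7 were called higher, beside 18.3% of all genes, with a median of 0.24, and Prdx5 lost its call (0.09, adjusted p = 0.311). Of 7 tested genes of the NADPH oxidase, Cyba (0.59, adjusted p = 0.00312), Rac1 (0.42, adjusted p = 0.00152) and Rac2 (0.28, adjusted p = 0.0248) were called higher, beside 22.4% of all tested genes. Cybb, its catalytic subunit, was not called, with a log2 fold change of 0.08, nor were the cytosolic subunits Ncf1 (-0.11) and Ncf4 (0.10). The length correction took away the call of Cyba (0.15, adjusted p = 0.14) and gave one to Cybb (0.25, adjusted p = 0.0397). Of 7 genes of lipid synthesis, which also uses NADPH, edgeR called 0, beside 45.4% of all tested genes, with 0 at an unadjusted p under 0.05 and 0 by DESeq2, and values included -0.26 for Acaca and 0.33 for Dhcr7, with Acly, the highest per length, at 0.05.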

How the data were processed

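RNA of 12 sorted samples was sequenced by the authors with stranded paired-end libraries. The deposited values are counts of fragments per gene, made by the authors with featureCounts 2.0.0 over the exons of a UCSC mm10 annotation, reverse-stranded, with both ends on 1 chromosome and with mapping qualities under 60 left out. An aligner is not given in the sources used here. Samples were grouped by the age in the labels.

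Counts were filtered with filterByExpr, scaled with TMM factors (0.919 to 1.10) and fitted with the quasi-likelihood test of edgeR 4.0.16 in R 4.3.3, without covariates and with Benjamini-Hochberg adjustment over 9742 genes at a threshold of 0.05. The biological coefficient of variation was 15.7%. A count of 3, taken as the floor, is worth 0.188 to 0.643 CPM, and these limits cover counting error only. No pair of libraries of 1 age agreed within sampling noise. On simulated data for this comparison (9742 genes), 65% of genes changed 1.5-fold and 90% of those changed 2-fold were recovered. The simulation changed 100 genes at each fold, gave 9 false calls and held no trend with gene length. In the data 45.4% of genes were called, so recovery there may differ. Ratios between enzymes were tested by exact permutation. Log2 CPM used a prior count of 2.

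The members and lists were chosen with earlier results of these data known. The genes named were all members, Gpi1, the gene of each list that rose most, that fell most and that had the highest level per length, members of a list that were not called or went against it where these were 5 or fewer, and the 2 genes most like each member. Some list members that this rule names are not reported here. Tktl1, Tktl2 and some genes of the marker lists were named after their values were seen. Alternatives were library totals, upper quartile scaling, DESeq2 1.42.0, limma-voom (limma 3.58.1), other count filters, a pseudocount on ratios, corrections for gene length and GC content (GC content was found for 94.4% of tested genes), thinned libraries, the mouse number as a block and each mouse left out in turn.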

Additional observations from a re-analysis of the deposited data

Results flagged for a closer look

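A single mouse far from the others of its age was looked for in 26 sets of 6 mice, the levels of the 8 members and the 5 ratios at each age, by comparing the gap to the nearest mouse with the whole range (Dixon's 95% critical value of 0.625). Chance alone marks about 1 in 20 such sets, and 2 were marked. H6pd in young mice was marked by young mouse 2 at 171 CPM, while the other 5 young mice lay between 150 and 157 CPM. The log2 ratio of Tkt to Taldo1 in aged mice was marked by aged mouse 7 at 0.03, while the other 5 aged mice lay between -0.499 and -0.302.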

How the results depend on the processing

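G6pdx was called higher under every alternative run, with log2 fold changes from 0.41 to 0.57. With the length correction, H6pd changed sign (0.106) and Pgls (0.005) and Taldo1 (0.155) lost their calls, whereas Rpia (-0.389) and Tkt (0.219) gained one and the difference in Tkt to Taldo1 turned to 0.065. Tkt was also called higher with upper quartile scaling (0.224), DESeq2 (0.189), limma-voom (0.194) and at least 10 counts in every mouse (0.195). Rpe lost its call with the GC correction (-0.124), Taldo1 without young mice 5 and 6 (0.223), and Rpia to Rpe turned to 0.008 in thinned libraries. Apart from the construction of each alternative, the cause was not tested. Leaving out each mouse in turn gave -0.301 to -0.181 for Rpia, 0.138 to 0.228 for Tkt, which was called without young mouse 9 or young mouse 10, 0.111 to 0.224 for G6pdx to Gpi1 and -0.312 to -0.183 for Tkt to Taldo1, and changed no other call of a member or ratio. Mice that share a number did not deviate together (correlations of -0.15 to -0.22 in 4 pairs), so the numbers do not pair them. With the mouse number as a replicate block over these 8 mice, Pgd (0.458, adjusted p = 0.0539) and Rpe (-0.153, adjusted p = 0.187) lost their calls, and G6pdx to H6pd was 0.71 (exact sign-flip test, adjusted p = 0.25, where 4 pairs allow no unadjusted p below 0.125). In the same 8 mice without the block, Rpe was not called either (-0.15, adjusted p = 0.0775) and Tkt was called (0.255, adjusted p = 0.0384), with 4394 genes called against 3490 with it. Over all other alternatives with all mice, 3393 to 4750 genes were called against 4425. Without TMM factors 37.8% of the called genes were higher in aged mice, in place of 49.4%, with the same number of members called. Depth limited G6pd2 and the relatives of transketolase more than any member, whose lowest count was 153. That count was of Rpia, whose log2 fold change was -0.149 in thinned libraries (edgeR adjusted p = 0.358) against -0.238 in full ones.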

Other observations

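Nrf2 and its classic targets, which act in the defence against oxidants, had 10 genes tested. By edgeR's quasi-likelihood test 4 were called higher in aged mice and 1 lower, beside 22.4% and 23.0% of all tested genes, or 45.4% in either direction, and the median log2 fold change was 0.00. Nqo1, a quinone reductase that uses NADPH, was higher in every aged than in every young mouse, at 4.46 to 10.2 against 1.30 to 4.29 CPM (1.35, adjusted p = 0.00206). Hmox1, heme oxygenase, was 57.3 to 139 against 29.2 to 45.7 CPM (1.0, adjusted p = 0.000827), and Gclm (0.40) and Srxn1 (0.83) were also called higher. Slc7a11, the cystine transporter, was lower, at 64.3 to 101 against 118 to 148 CPM (-0.69, adjusted p = 7.16e-05). The factor Nfe2l2 (-0.12), its inhibitor Keap1 (0.05), Gclc (-0.04), Txnrd1 (-0.15) and Osgin1 (-0.05) were not called. Hmox1 is also abundant in resident macrophages, whose markers were higher in aged mice, and the part of these cells was not tested. With the length correction 3 of the 10 genes were called higher and 0 lower, beside 18.3% and 16.5%, as Srxn1 (0.83, adjusted p = 0.0599) and Slc7a11 (-0.20, adjusted p = 0.197) lost their calls.

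Of 7 proliferation markers, 2 were called lower, beside 23.0% of all tested genes. Mki67 was lower in aged mice, at 63.5 to 173 against 229 to 674 CPM (log2 fold change -2.01, adjusted p = 0.000134), as was Top2a (-0.62, adjusted p = 0.0315), and Cdk1 (-0.04), Ccnb1 (0.17), Mcm5 (-0.12), Pcna (-0.01) and Rrm2 (-0.20) were not called. With the length correction 1 of the 7 was called lower, beside 16.5%.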
